A study of Rattus norvegicus with 8 samples.

Results

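The p38 MAP kinases are the stress-activated branch of the MAP kinase family. Kinases at the top of the cascade, among them Map3k5 (ASK1, held inactive by thioredoxin and released by oxidative stress), phosphorylate Map2k3 and Map2k6, and these phosphorylate the p38 kinases. The p38 kinases are alpha (Mapk14), beta (Mapk11), gamma (Mapk12) and delta (Mapk13). The alpha form is found in most cell types, while delta is typical of epithelia, such as the prostate's, and gamma of skeletal muscle. Mapkapk2 and Mapkapk3 are kinases activated by p38 that act on proteins bound to unstable inflammatory mRNAs and on small heat shock proteins. Kinase activity in this cascade is set by phosphorylation, which an mRNA array does not measure.

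The 9 genes Mapk14, Mapk11, Mapk12, Mapk13, Map2k3, Map2k6, Mapkapk2, Mapkapk3 and Map3k5 were looked for by gene name among the 41012 probes of the array. Of these, 7 were found by name, with 9 probes. Map3k5 was added with 2 probes, because the array design lists it under an older symbol. Mapk11 had no probe under its own name and is given no value. A gene that the array design names LOC679007 and describes as similar to Mapk11 lies outside the name rule and is shown under that name. In all, 8 of the 9 genes were tested, among 23188 genes.

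The arrays compared ventral prostates of 4 control and 4 telmisartan-treated TRAP rats with a normal prostate reference. TRAP rats carry a transgene in which the probasin promoter, active in prostate epithelium, drives a viral large T antigen, and both groups carried it as heterozygous males of the SD strain, 15 weeks old. The treated rats had received telmisartan, a blocker of the angiotensin type I receptor, in drinking water at 10 mg/kg per day for 12 weeks from 3 weeks of age. A label of these rats names a further dose, and the design text of the series gives 10 mg/kg per day for the arrays. Control rats had tap water. The reference was ventral prostate of F344 male rats aged 6 weeks. Each rat had 1 array with its own RNA in Cy5 and the reference in Cy3, and values below are log2 of Cy5 over Cy3 unless said otherwise. The reference differs from every TRAP sample in strain, age, transgene and dye, so these cannot be told apart in a ratio over it, and dyes were not swapped.

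Between 64.7 and 76.8% of gene spots were well above background in Cy5 in control rats, and between 59.2 and 68.1% in treated rats. The arrays lay on 2 slides, each with 2 rats of both groups. Of 9 luminal epithelial markers tested, the mean by rat lay between -0.22 and 0.17, and all were well above background in Cy5 on all 8 arrays. Over all genes, limma called 0 of 23188 (0%) between treated and control rats at an adjusted p under 0.05, the smallest being 0.288, and 1117 (4.82%) had an unadjusted p under 0.05. The T cell list had a mean of 0.60 in Control 103 and 0.34 in Telmisartan 302, the lowest of their groups, against 1.00 to 2.18 in the other 6 rats.

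Where a gene had several probes, their sequences tell them apart; they were not placed on transcripts. Each probe has 60 bases, and the first 30 are printed here for the genes whose probes gave different values, Mapk14, Map3k5 and LOC679007.
Mapk14 A_43_P12479: tctcgtatttaggtcaaggtgtctccattc
Mapk14 A_44_P286911: ttgtgctatatgaggacccatatatttaag
Mapk14 A_44_P360409: aatgtgattggtctgttggatgtgtttaca
Map3k5 A_44_P229289: tcatcaagccattgaagaaaaggaccaaga
Map3k5 A_44_P416968: atgttactgtcgttagatttccagtgttaa
LOC679007 A_44_P449929: ccctctggctgtagacctccttggaagaat
LOC679007 A_44_P838436: ctctggatgtcaagtgcctgcaccaagagt

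Against the reference, the pathway had one gene that stood far from the others. Mapk13, the delta form, was 3.32-fold above the reference in control rats and 3.50-fold in treated rats. Map2k6 and Mapk14 were also above the reference in all 8 rats, at 1.44-fold and 1.30-fold in control rats. The ratios of the other 5 genes tested lay on both sides of 0. Among them, Map3k5 had a dim reference signal, so its ratio is not a measured level, though it is counted among the 8 genes here. So 3 of 8 genes were above the reference in every rat and 0 were below it, where 30.8% and 25.7% of all genes tested were. Beyond 2-fold above in all 8 rats there was 1 of 8, where the share of all genes was 3.73%. With median centring in place of loess, 5 of 8 were above in every rat and 3 of 8 beyond 2-fold, where 60.8% and 24.4% of all genes were. In bulk tissue, fewer cells of a type and less RNA per cell cannot be told apart.

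Between treated and control rats, 0 of 8 genes passed the adjusted threshold (limma, Benjamini-Hochberg over 23188 genes), where 0% of all genes did. None of the 8 had an unadjusted p under 0.05 in limma (background 4.82%), and the groups overlapped for all 8, while they did not overlap for 2.73% of all genes. On average 3 genes were lower and 5 higher in treated rats, and 50.6% of all genes were lower. The differences ran from -0.12 for Mapkapk2 to 0.16 for Mapk12 on the log2 scale. The 95% intervals stayed within -0.50 and 0.52. Each gene's own interval bounds the difference its 4 rats a group allow.

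**Figure D1:**
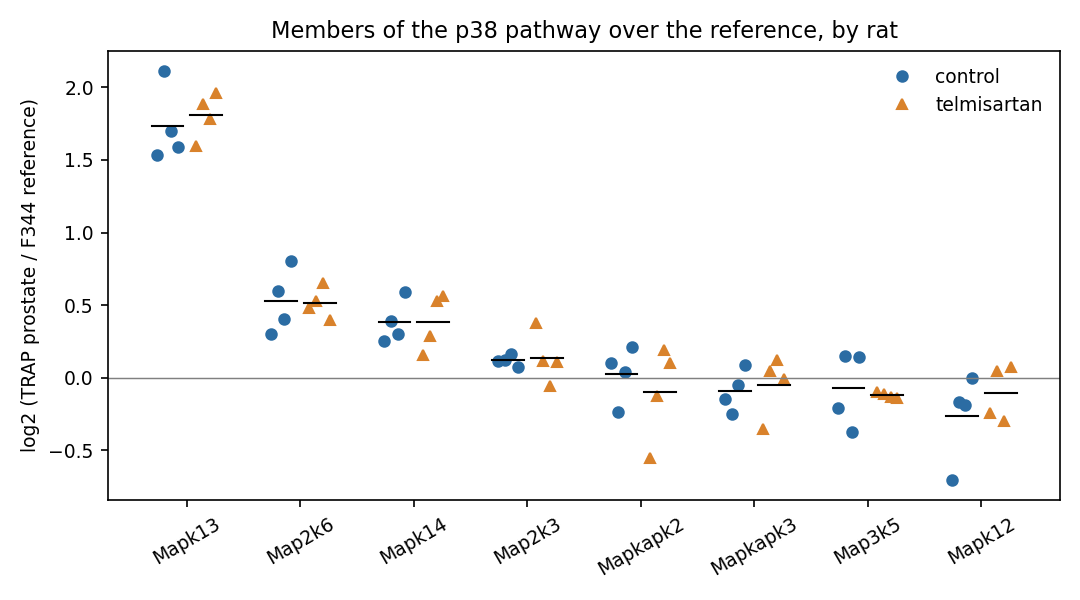
log2 ratio of TRAP prostate over the F344 reference (y axis) for each of the 8 genes tested (x axis, ordered by the mean over 8 rats); points are rats, circles control and triangles telmisartan, and black lines are means of 4 rats. Mapk13 lies between 1.53 and 2.11 in all rats, above every value of the other genes, and the control and treated points of each gene overlap; the reference signal of Map3k5 was well above background on 1 of 8 arrays, so its height is not a measured level.

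At the top of the cascade, Map3k5 was measured weakly. With the brighter of its probes, A_44_P229289, control rats had -0.21, 0.15, -0.37 and 0.14 and treated rats had -0.10, -0.12, -0.13 and -0.14. The control rats were spread on both sides of 0 and the treated rats lay together inside their range. The difference was -0.050 (SE 0.13, 95% interval -0.34 to 0.24, limma adjusted p = 0.997; exact permutation p = 0.714). The reference channel of this probe was well above background on 1 of 8 arrays, so its ratio over the reference carries no fold.

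The other Map3k5 probe, A_44_P416968, gave 0.66, 0.87, 0.29 and 0.30 in control rats and 0.12, 0.71, -0.02 and 0.49 in treated rats. It was well above background in Cy5 in 4 of 4 control rats and 0 of 4 treated rats, and in Cy3 on 0 arrays. It passed the filter on dim probes only through the control rats, so no fold or test is given for it. The groups overlapped on both probes.

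Of the kinases that phosphorylate p38, Map2k6 had a higher mean over the reference than Map2k3 in control rats with loess. With median centring the order turned, with control means of 1.22 for Map2k6 and 1.44 for Map2k3. Map2k6, which acts on all p38 forms, stood at 0.30, 0.60, 0.40 and 0.81 in control rats and at 0.48, 0.53, 0.65 and 0.40 in treated rats. Every rat was above the reference, Control 106 was the highest and Control 102 the lowest, and the treated rats lay within the control range. The means were 0.53 ± 0.22 and 0.51 ± 0.11 (SD, n = 4 each), a difference of -0.013 (SE 0.12, limma adjusted p = 0.998; exact permutation p = 0.943). The sign of that difference turned to 0.046 with the scanner's own log ratio, 0.071 with median centring and 0.17 with Cy5 alone.

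Map2k3, its closest relative in the cascade, was near the reference with loess and at 1.44 in control rats with median centring. Control rats had 0.11, 0.13, 0.16 and 0.08, the narrowest spread of the 8 genes among control rats. Treated rats had 0.38, 0.11, -0.06 and 0.11, with Telmisartan 302 above and Telmisartan 305 below all control rats. The difference was 0.018 (SE 0.11, 95% interval -0.22 to 0.26, limma adjusted p = 0.997; exact permutation p = 0.857).

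Mapk14, the alpha form, was measured with the most spots, since one of its probes was printed 10 times on each array. That probe gave 0.25, 0.39, 0.30 and 0.59 in control rats and 0.16, 0.29, 0.53 and 0.56 in treated rats. The control and treated rats cover nearly the same range, with Control 106 the highest and Telmisartan 302 the lowest. Spots of 1 array had a median SD of 0.047 (range 0.021 to 0.053), and the SD over the 8 rats was 0.16. The first of these holds no variation between arrays, while the second does. The means were 0.38 ± 0.15 and 0.38 ± 0.19 (SD, n = 4 each), with a difference of 0.00087 (SE 0.12, 95% interval -0.28 to 0.28, limma adjusted p = 0.999; exact permutation p = 1). In fold terms the interval ran from 0.826 to 1.21.

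The further Mapk14 probes followed the replicated one to differing degrees. Control means were 0.41 for A_44_P286911 and 0.59 for A_44_P360409, against 0.38 for the replicated probe. Probe A_44_P286911 ran with the replicated one, at 0.23, 0.44, 0.35 and 0.64 in control and 0.16, 0.32, 0.57 and 0.67 in treated rats (exact permutation p = 0.914 for the difference). Probe A_44_P360409 gave 0.61, 0.49, 0.52 and 0.73 in control and 0.54, 0.45, 0.46 and 0.60 in treated rats (exact permutation p = 0.286). On this probe Control 102 and Telmisartan 302 were not low. All 3 probes were above the reference in 8 of 8 rats, and none separated the groups. The difference of the replicated probe was -0.10 on one slide and 0.10 on the other.

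**Figure D2:**
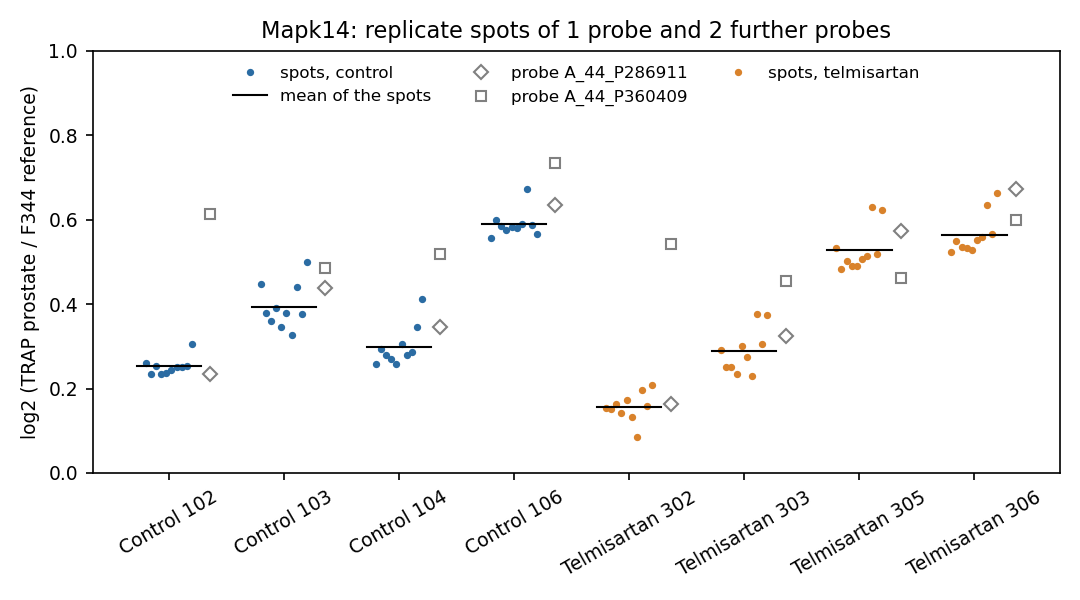
log2 ratio over the reference (y axis) by rat (x axis) for Mapk14: dots are the 10 spots of probe A_43_P12479, black lines their mean, and open symbols 2 further probes with 1 spot each. The spots of a rat lie close together while the means run from 0.16 in Telmisartan 302 to 0.59 in Control 106, and the probe drawn as squares is above all spots of the rat in 5 of 8 rats and below all of them in 1.

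Mapk13, the delta form, had values of 1.53, 2.11, 1.70 and 1.59 in control rats and 1.60, 1.89, 1.79 and 1.96 in treated rats. All 8 rats were above 1.5, Control 103 was the highest, and the treated rats lay inside the control range. The means were 1.73 ± 0.26 and 1.81 ± 0.16 (SD, n = 4 each), a difference of 0.074 (SE 0.14, 95% interval -0.25 to 0.39, limma adjusted p = 0.996; exact permutation p = 0.629). Of all genes tested, 3.36% had a higher mean over the reference in control rats, 7.64% with the scanner's own log ratio and 3.04% with median centring. The ratio of Mapk13 exceeded that of Mapk14 in every rat, by 1.28, 1.72, 1.40 and 1.00 in control rats and by 1.44, 1.60, 1.26 and 1.40 in treated rats, a statement on ratios to the reference and not on which mRNA is more abundant. Control 103 and Telmisartan 302, the rats lowest in T cell markers, were at 2.11 and 1.60.

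Mapk12, the gamma form, was the lowest over the reference on average with loess scaling, Map3k5 aside. Control rats had -0.70, -0.17, -0.19 and 0.00 and treated rats had -0.24, 0.05, -0.30 and 0.07. Control 102 stood lowest, and 3 of 8 rats were at or above the reference. The difference was 0.16 (SE 0.16, 95% interval -0.20 to 0.52, limma adjusted p = 0.982; exact permutation p = 0.543), and it was 0.013 without Control 102. The 11 skeletal muscle markers tested were all below the reference in all 8 rats, with list means by rat between -4.14 and -3.87. Their part in the level of Mapk12 was not tested.

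Of the probes named LOC679007, A_44_P838436 gave the highest mean ratio of these kinases' probes over the 8 rats, though not among treated rats, where Mapk13 was higher. It gave 1.98, 2.23, 1.80 and 1.90 in control rats and 1.84, 1.80, 1.79 and 1.50 in treated rats. The groups overlapped only through Telmisartan 302, which stood above Control 104. The means were 1.98 ± 0.18 (3.95-fold) and 1.73 ± 0.16 (3.32-fold), a difference of -0.25 (SE 0.12, 95% interval -0.52 to 0.03, limma adjusted p = 0.982; exact permutation p = 0.0571). The other probe, A_44_P449929, gave 0.09, 0.02, 0.20 and 0.51 in control rats and 0.09, 0.44, 0.15 and 0.15 in treated rats. Its reference signal was not well above background on any array, so its level over the reference is bounded at 1.05-fold or more in control rats. A lower bound does not tell how far apart the probes are, so the values are given by probe and not for a gene.

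The kinases below p38 were near the reference with loess, while with median centring the control means were 1.35 for Mapkapk2 and 0.35 for Mapkapk3. Mapkapk2, which phosphorylates tristetraprolin and the small heat shock protein Hspb1, had 0.10, -0.23, 0.04 and 0.21 in control rats and -0.55, -0.12, 0.19 and 0.10 in treated rats. Control 103 and Telmisartan 302 were the lowest of their groups. The difference was -0.12 (SE 0.17, 95% interval -0.50 to 0.25, limma adjusted p = 0.988; exact permutation p = 0.6), and it was 0.028 without Telmisartan 302.

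Mapkapk3, the related kinase, had -0.14, -0.25, -0.05 and 0.09 in control rats and -0.35, 0.05, 0.12 and -0.01 in treated rats. Control 103 and Telmisartan 302 were again the lowest of their groups. The difference was 0.041 (SE 0.13, 95% interval -0.24 to 0.32, limma adjusted p = 0.997; exact permutation p = 0.771). These rats were also the lowest of their groups in the macrophage list, at 0.85 and 0.37, where the other 6 rats lay between 1.15 and 1.71. On average 11 of 13 macrophage markers and 12 of 12 T cell markers tested had lower values in the treated group, where 50.6% of all genes did. At an unadjusted p under 0.05 in limma, 2 of the macrophage markers and 0 of the T cell markers were lower (background 4.82%). Limma called 0 in either list. The T cell list means by rat overlapped, at 0.60 to 2.18 in control and 0.34 to 1.92 in treated rats. The part of immune cells in the values of Mapkapk2 and Mapkapk3 was not tested.

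**Figure D3:**
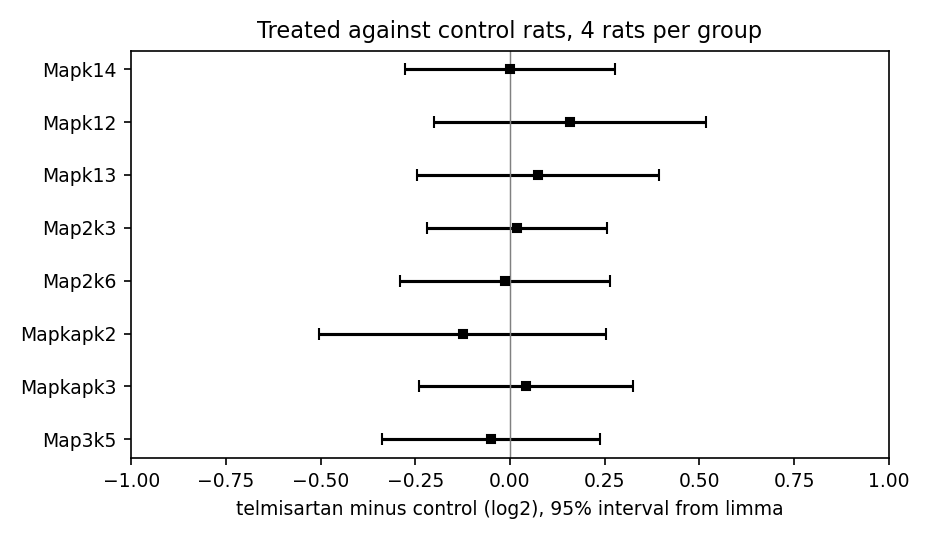
Difference in log2 ratio, telmisartan minus control (x axis), for the 8 genes (y axis); squares are limma estimates from 4 rats a group and bars their 95% intervals. All intervals hold 0, the widest running from -0.50 to 0.25 for Mapkapk2, and the estimates lie between -0.12 and 0.16; the sign of the Map2k6 difference depends on the scaling.

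Ordered by the mean over 8 rats, the ratios over the reference were 1.77 for Mapk13, 0.52 for Map2k6, 0.38 for Mapk14, 0.13 for Map2k3, -0.03 for Mapkapk2, -0.07 for Mapkapk3 and -0.19 for Mapk12. Map3k5 has no place in this order, because its reference signal was well above background on 1 of 8 arrays. Mapk13 was above Map2k6 in 8 of 8 rats and their ranges did not overlap. Every other pair of neighbours in this order overlapped in range. The order rests on ratios to the reference, so it is not an order of abundance.

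The scaling of the arrays moved these levels. Under median centring in place of loess, the median of all genes in control rats went from 0.06 to 0.67. Relative to that median, Mapk13 stood at 2.22, Mapk14 at 1.01, Map2k3 at 0.77, Mapkapk2 at 0.69 and Map2k6 at 0.55, while Mapkapk3 stood at -0.32 and Mapk12 at -0.35. Mapk13, Map2k6 and Mapk14 were above 0 in 8 of 8 rats under each scaling tried. The control means of Mapk12 and Mapkapk3 were below 0 with loess and with the scanner's log ratio, and turned to 0.31 and 0.35 with median centring.

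Over the 8 rats, the 28 pairs of the 8 genes were set against each other. Mapkapk2 and Mapkapk3 varied together, with Pearson r = 0.834 (exact permutation p = 0.0091, adjusted over 28 pairs 0.0852) and Spearman rho = 0.810 (exact permutation p = 0.0218, adjusted 0.203). Without Telmisartan 302 and Control 103, the rats farthest out for this pair, the r was 0.243. Leaving out the farthest rats narrows the range, so the lower r does not show that the relation rests on them. With slide means removed over all 8 rats the r was 0.687. Map2k3 ran against Mapkapk2, with r = -0.846 (exact permutation p = 0.0085, adjusted 0.0852) and rho = -0.905 (exact permutation p = 0.0046, adjusted 0.128). Its r was -0.434 without Telmisartan 302 and Telmisartan 305, and -0.808 with slide means removed. Map2k3 also ran against Mapkapk3, with r = -0.814 (exact permutation p = 0.0043, adjusted 0.0852) and rho = -0.833 (exact permutation p = 0.0154, adjusted 0.203). For this pair r was -0.448 without Telmisartan 302 and Telmisartan 305, and -0.750 with slide means removed. Mapk14 ran against Map2k3 with r = -0.717 (exact permutation p = 0.0228, adjusted 0.160) and rho = -0.714 (exact permutation p = 0.0576, adjusted 0.269). The r of Mapk14 and Map2k3 was -0.885 without Control 106 and Telmisartan 306, and -0.605 with slide means removed. Mapk14 ran with Mapkapk2 (r = 0.717, exact permutation p = 0.0391, adjusted 0.182) and Map2k6 with Map3k5 (r = 0.737, exact permutation p = 0.0380, adjusted 0.182). With slide means removed these were 0.416 and 0.836. No pair passed 0.05 after adjustment.

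For each gene, the named gene with the most similar pattern over the 8 rats was picked from 11417 others, as a description without a test. They were Snx8 for Mapk14 (r = 0.970), Cdkl2 for Mapk12 (r = 0.953), Spin2a for Mapk13 (r = 0.977) and Maco1 for Map2k3 (r = 0.983). For the rest they were Arfgap2 for Map2k6 (r = 0.969), Dnajc2 for Mapkapk2 (r = 0.982), Nbeal2 for Mapkapk3 (r = 0.994) and Nsmf for Map3k5 (r = 0.970). The genes share arrays, and the highest of so many correlations over 8 points is high by selection. The most similar gene was never another of the 8.

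Mapk14 and Mapk13 are neighbours on chromosome 20 in the RefSeq annotation of GRCr8, with 0 protein-coding genes between them, and their ratios over the reference differed in every rat. The stretches from 250 to 81 bases before their annotated starts are shown, from RefSeq, on the plus strand, with each GC box (GGGCGG on either strand, overlapping matches included) in capitals.
Mapk14 chr20:6751109-6751278: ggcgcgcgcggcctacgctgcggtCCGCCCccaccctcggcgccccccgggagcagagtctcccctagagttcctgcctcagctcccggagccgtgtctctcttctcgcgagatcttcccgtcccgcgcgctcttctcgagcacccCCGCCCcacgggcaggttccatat
Mapk13 chr20:6836769-6836938: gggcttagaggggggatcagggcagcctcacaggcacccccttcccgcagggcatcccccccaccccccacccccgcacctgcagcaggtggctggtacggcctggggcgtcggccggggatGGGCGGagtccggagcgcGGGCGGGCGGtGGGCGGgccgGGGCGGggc
The Mapk14 stretch holds 2 GC boxes and the Mapk13 stretch 5. Of 33469 promoters cut in the same way, 19.4% hold at least 1, 7.13% at least 2 and 0.394% at least 5. G and C make up 71.8% of the Mapk14 stretch and 79.4% of the Mapk13 stretch, where the median promoter has 50.6%. Neither stretch holds the letters of a TATA box (TATAAA) on either strand, which 8.55% of promoters cut in the same way hold. The stretches end 81 bases before the start, so a TATA box nearer to it would not be seen. Neither holds an AP-1 site (TGANTCA), which 4.38% hold, or a cAMP response element (TGACGTCA), which 0.63% hold, on either strand. No E-box (CACGTG), held by 3.36% of promoters, was found in them either. Among the other members, the Map2k3 stretch also holds 2 GC boxes, and G and C make up 84.1% of the Map3k5 stretch. A match describes letters and no binding, and the part of these stretches in the ratios was not tested.

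Around the 8 genes, lists of pathway genes were described by their counts, beside a median difference of -0.002 and a median control ratio of 0.06 over all genes. Limma called 0 genes in each of these 5 lists, where 0% of all genes were called. Of 23 kinases and adaptors that act above p38, 11 were lower and 12 higher in treated rats, with a median of 0.003, and 6 of the 23 were lower with median centring. Map3k3, a kinase that can feed the p38 and ERK5 cascades, stood at 0.92 ± 0.05 over the reference in control rats and differed by -0.14 (SE 0.09). Gadd45g, a stress-induced activator of Map3k4, stood at -1.06 ± 0.17, and its relative Gadd45b differed by -0.29 (SE 0.21). Map3k12 differed by 0.16 (SE 0.09) and Taok2, a kinase above Map2k3 and Map2k6, by -0.24 (SE 0.15).

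Of 25 substrates and effectors, 15 were lower and 10 higher, with a median of -0.01. At an unadjusted p under 0.05 in limma, 2 were higher and 0 lower, where the share of all genes was 4.82%. They were Bcl6, a transcriptional repressor with a looser tie to p38, at 0.42 (SE 0.16), and Elk4, an ETS factor whose reference signal was well above background on 0 arrays, at 0.36 (SE 0.15). Both had a limma adjusted p of 0.982. Bcl6 was at 0.15 in Telmisartan 302, against -0.59 to -0.37 in the other treated rats and -0.89 to -0.53 in control rats. Elk4 was at 0.97 in Telmisartan 306, against 0.27 to 0.54 in the other treated rats and 0.08 to 0.33 in control rats. Ddit3 (CHOP), a stress-induced transcription factor, differed by -0.37 (SE 0.19). Lsp1, a leukocyte protein phosphorylated by Mapkapk2, stood at 1.70 ± 1.10 over the reference in control rats and differed by -0.62 (SE 0.60), and it was at 0.056 in Control 103, against 2.15 to 2.36 in the other control rats.

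Of 10 phosphatases that act on MAP kinases, 4 were lower and 6 higher, with a median of 0.009. Ppm1d (Wip1), a p53-induced phosphatase of p38, stood at 1.49 ± 0.15 over the reference in control rats and differed by 0.13 (SE 0.13). Ptprr, a tyrosine phosphatase that holds ERK and p38, stood at -1.94 ± 0.28. Dusp6, which acts mainly on ERK, differed by -0.64 (SE 0.31), Dusp16, with a reference signal well above background on 0 arrays, by 0.25 (SE 0.14) and the leukocyte phosphatase Ptpn7 by -0.50 (SE 0.39). In Telmisartan 302, Dusp6 was at -0.06, against 0.52 to 1.05 in the other treated rats, and Ptpn7 at 0.24, against 1.28 to 1.93. In Control 103, Dusp6 was at 0.47, against 1.21 to 1.86 in the other control rats, and Ptpn7 at 0.72, against 1.70 to 2.28. Of 13 kinases of the ERK and JNK branches, 5 were lower and 8 higher, with a median of 0.02, and 2 of the 13 were lower with median centring or with Cy5 alone. Among them Braf stood at -0.71 ± 0.10 over the reference and Mapk6 at 0.83 ± 0.18, and Araf differed by 0.22 (SE 0.12).

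The mRNAs known to be stabilised through p38 and Mapkapk2 had the highest median of the 5 lists over the reference, 2.08 in control rats. Of its 13 genes tested, 7 had a reference signal well above background on all 8 arrays, with a median of 2.35. Cxcl1, a neutrophil chemokine, stood at 5.63 ± 0.33. Cxcl2 is given no level, since its reference signal was well above background on 1 of 8 arrays. All 13 genes tested were lower on average in treated rats (50.6% of all genes were), with a median of -0.27, and 0 had an unadjusted p under 0.05 in limma. The chemokine Ccl2 differed by -1.46 (SE 0.80), Ier3 by -0.39 (SE 0.20), Nos2, with a reference signal well above background on 0 arrays, by -0.27 (SE 0.21) and Vegfa by -0.19 (SE 0.14). Ccl2 was at -0.42 in Telmisartan 302, against 2.12 to 3.56 in the other treated rats and 2.54 to 4.61 in control rats.

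The list mean by rat was 2.29, 1.58, 2.00 and 2.11 in control rats and 0.42, 2.33, 1.96 and 1.65 in treated rats. Telmisartan 302 stood below all other rats and Telmisartan 303 above them. Without Telmisartan 302, 8 of 13 genes were lower, with a median of -0.02. Without both Telmisartan 302 and Control 103, 9 of 13 were lower, with a median of -0.07. Telmisartan 302 was also the lowest of the 8 rats in the T cell and macrophage lists. Its array had the lowest share of gene spots well above background in Cy5, 59.2%, with Telmisartan 303 next at 60.5%. The part of immune cells or of array signal in this list was not tested.

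**Figure D4:**
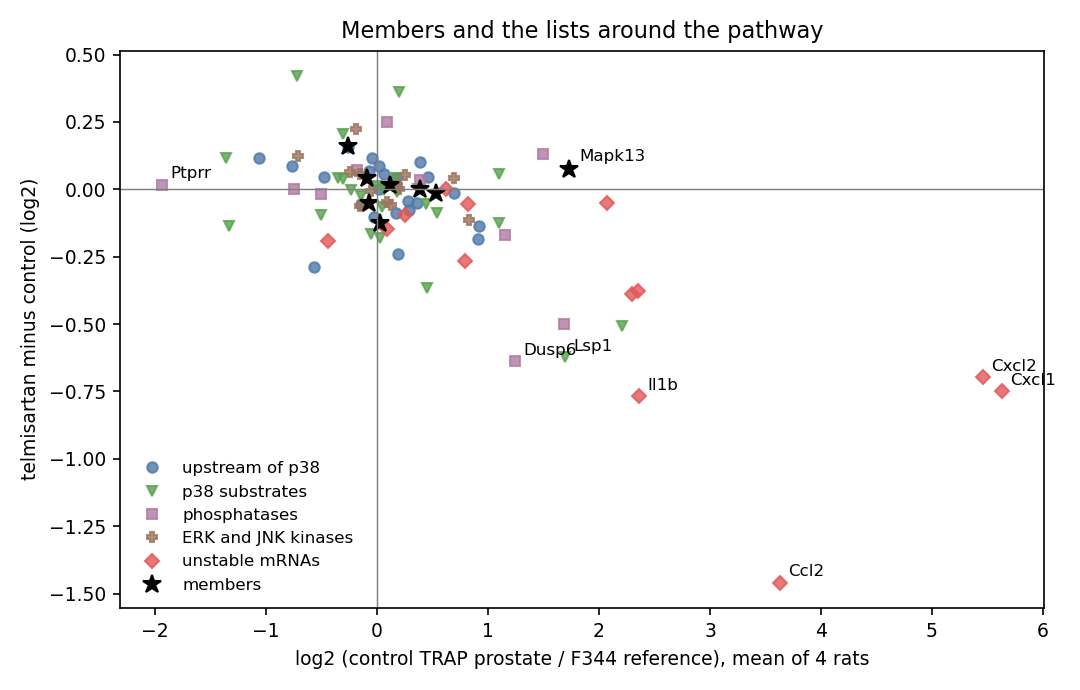
Each point is a gene: x axis, mean log2 ratio of control TRAP prostate over the F344 reference (4 rats); y axis, telmisartan minus control on the log2 scale. Stars are the 8 genes of the pathway and other symbols the 5 lists around it. The stars lie between -0.12 and 0.16 on the y axis, the sign for Map2k6 depending on the scaling. The unstable mRNAs reach -1.46 for Ccl2, which was at -0.42 in Telmisartan 302 and at 2.12 to 3.56 in the other treated rats. Genes with a dim reference signal, such as Cxcl2 and Map3k5, have no measured level on the x axis.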

How the data were processed

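Ventral prostate RNA of 8 rats was hybridised to 2-colour Agilent arrays. Per the submitters' processing notes, the images were quantified by Agilent Feature Extraction 9.1. For both channels the deposited scanner files give raw mean intensity and local background intensity. They also give the software's log10 ratio (Cy5 to Cy3), already background-subtracted and dye-normalized per the file headers. The log10 values of the deposited series matrix matched these, spot by spot as listed, to within 0.005, and both served as alternatives.

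Intensities were corrected with normexp (offset 50) and loess within arrays in limma (version 3.58.1, under R 4.3.3; tables were read by data.table, version 1.17.8). Control spots (1639 of 45018) were left out and spots of a probe averaged. A probe was kept if Cy5 was well above background on 4 or more of the 8 arrays (27207 of 41012 probes), and the brightest probe stood for a gene. Names came from RefSeq: 10735 probes by accession, 5571 by current symbol, 3729 by older symbol, and 20977 kept the file's name. Promoter sequences came from RefSeq GRCr8 and matched 9 of the 9 genes.

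Groups were compared with limma's lmFit and eBayes, with Benjamini-Hochberg adjustment over 23188 genes, and with exact two-sided permutation tests over rats, whose smallest p is 0.0286 with 70 arrangements. Intervals are 95% intervals from limma. The precision is limited by 4 rats per group. The members and lists were chosen with earlier results of these data known. Named genes were all members, and per list up to 4 by unadjusted p and up to 2 by size over the reference in control rats, plus the gene most like each member. Alternatives covered background, scaling, filter, probe choice, slide, weights and rats left out. Leaving out Control 103 and Telmisartan 302 together was chosen after seeing the data. The test was checked on simulated data. Some genes that this rule names are not reported here.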

Additional observations from a re-analysis of the deposited data

Results flagged for a closer look

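In 76 groups of 4 rats (each probe shown and each list gene named, in control and in treated rats), 6 held a rat far from the other 3 by Dixon's criterion, where chance gives about 1 in 20. Among the probes named LOC679007, A_44_P449929 was at 0.44 in Telmisartan 303, against 0.09 to 0.15 in the other treated rats. A_44_P838436 was at 1.50 in Telmisartan 306, against 1.79 to 1.84. Lsp1 was at 0.056 in Control 103, against 2.15 to 2.36 in the other control rats. Ptprr was at -2.23 in Telmisartan 306, against -1.84 to -1.79. Mapk6 was at 0.30 in Telmisartan 302, against 0.81 to 0.88. Ier3 was at 2.16 in Control 104, against 2.34 to 2.37. Of the 8 pathway genes, none was singled out in this way on any of its probes.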

How the results depend on the processing

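Under 23 alternatives, 0 of 184 differences of the 8 genes passed the threshold (smallest limma adjusted p 0.491), 156 kept their sign and 28 turned; the cause was not tested. Differences that turned were, for Map2k6, 0.046 with the scanner log ratio, 0.047 with the series matrix, 0.071 with median centring, 0.17 with Cy5 alone and 0.055 on slide 1. They were, for Mapk14, -0.018 with the mean of its probes and -0.10 on slide 1; for Mapk13, -0.080 on slide 1; for Map2k3, -0.022 with array weights and -0.091 on slide 2; and on slide 2, -0.018 for Mapk12 and 0.023 for Mapkapk2. With rats 103 and 302 left out together, Map2k3 stood at -0.061, Map2k6 at 0.022 and Map3k5 at 0.016. Leaving out 1 rat at a time gave -0.059 to 0.077 for Mapk14, 0.013 to 0.25 for Mapk12, 0.0074 to 0.20 for Mapk13, -0.063 to 0.082 for Map2k3, -0.088 to 0.080 for Map2k6, -0.22 to 0.028 for Mapkapk2, -0.015 to 0.14 for Mapkapk3 and -0.15 to 0.023 for Map3k5. Genes past the threshold numbered 0 to 1 (BI289714, adjusted p = 0.0075 in limma, without Control 102; AI045810, adjusted p = 0.0059, without Telmisartan 303). Members below the reference in all 4 control rats numbered 0, but 1 with the scanner log ratio and with the series matrix. Of 152 levels over the reference, 8 moved by more than the SD over control rats and 9 turned sign. ERK and JNK kinases lower on average numbered 5, but 2 with median centring, with Cy5 alone and on slide 2, and 3 without Telmisartan 303; genes above p38 numbered 11, but 6 with median centring. No paired analysis was possible because the rat numbers of the groups are not shared. Dim reference signal limits Map3k5 and LOC679007 A_44_P449929.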
